A study of Mus musculus with 6 samples.

Results

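Of the 1119 genes named Olfr plus a number in the deposited tables of mouse cortex, 17 were already detected at 6 months. They were chosen by their 6-month counts alone: a gene was taken when the counts of the 3 mice of 6 months summed to 30 or more. Pseudogenes, whose symbols end in -ps and a number, were left out. The tables hold 55421 genes in all. The 17 are Olfr316, Olfr287, Olfr78, Olfr464, Olfr558, Olfr691, Olfr560, Olfr39, Olfr1366, Olfr620, Olfr539, Olfr689, Olfr1312, Olfr398, Olfr912, Olfr1564 and Olfr1183. Because the 6-month counts chose them, the levels at 6 months are a description, and the same counts enter every comparison with 24 months.

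RNA-seq was performed on the cerebral cortex of 6 male wild-type C57BL/6J mice, 3 of 6 months (mice 10, 11 and 17) and 3 of 24 months (mice 2, 4 and 5). All were killed under isoflurane anesthesia, and no other treatment or allele is listed. The libraries were made from 10 ng of total RNA with a kit for low input, read on 1 end over 75 bases and mapped to GRCm38. The totals were 29495379 to 36494240 counts per mouse. The libraries are of whole cortex tissue, so for every gene below fewer cells that express it and less RNA per cell cannot be told apart. The 7 markers of cortical excitatory neurons (Slc17a7, Neurod6, Cux2, Rorb, Fezf2, Tbr1 and Camk2a) summed to 2627 to 3498 CPM in each mouse (CPM are counts scaled to the effective size of the library), and none was at 0.

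Olfactory receptors are G protein-coupled receptors and form the largest gene family of the mouse genome. In the nose, a sensory neuron expresses a single receptor gene, and the receptor signals through the G protein subunit encoded by Gnal, the adenylyl cyclase encoded by Adcy3 and a cyclic nucleotide-gated channel. The class I genes, which resemble the receptors of fish, lie in a cluster on chromosome 7, and class II holds the others. Some receptors are known outside the nose: Olfr78 and Olfr558, the mouse counterparts of human OR51E2 and OR51E1, are expressed in vascular smooth muscle, and Olfr78 also in the carotid body and kidney.

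Olfactory receptors carry a conserved stretch at the inner end of the third transmembrane helix, where an aspartate, an arginine and a tyrosine follow each other and take part in G protein coupling. These codons stood in a row in 13 of the 17 members. The 30 bases around them are shown for the 5 most abundant members and for Olfr1312, the member with the largest fitted change, to show that the genes counted here differ in sequence even at their most conserved place. They are from the GENCODE vM21 transcripts (GRCm38), 5′ to 3′ on the coding strand, and capitals mark the 3 codons.
Olfr316: atgtcctatGACAGGTATatagccatctgc
Olfr287: atggcctatGATCGTTATgttgccatctgc
Olfr78: atggcctttGACCGGTACgtggctatctgc
Olfr464: atggcctatGACCGCTACatagccatctcc
Olfr558: atggcctttGACCGCTATgtggccatttgc
Olfr1312: atggcctttGACAGATATgtggccatatgt
Over the whole coding sequence, the 136 pairs of members were 53.4% to 64.7% identical (median 56.8%). The closest pairs were Olfr78 with Olfr558 and Olfr78 with Olfr560, both at 64.7%.

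Each member has coding exons of 918 to 984 bases in all, so that most of the exonic length lies outside the coding sequence. Where the reads fell within the exons was not examined. The coding bases were 8.3% (Olfr539) to 47.2% (Olfr39) of the exonic bases. The exonic length had a median of 5347 bases in the members and 2930 bases in the other 1102 Olfr genes. Exons summed to over 5000 bases in 9 of 17 members and in 136 of the others. A longer gene collects more counts at the same level per length, and the rule was set on counts. Of the 16 members with a receptor family number among their RefSeq synonyms, 6 were class I (Olfr78, Olfr558, Olfr560, Olfr620, Olfr689 and Olfr691), against 127 of all 1095 Olfr genes with such a number (11.6%). All 6 lie between 102702215 and 105342270 on chromosome 7 (GRCm38).

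Members at 6 months spanned a wide range of levels per length. The level is given as TPM, the authors' measure of abundance per exonic length, or as CPM per kilobase of exon, computed here from the counts. The mean TPM over the 3 mice ran from 6.14 ± 0.86 for Olfr316 (SD, n = 3, as below) to below 0.21 in each mouse for Olfr1183. Olfr316 and Olfr287 held the first and second rank per length among all 1119 Olfr genes, and Olfr78 and Olfr464 came next. In CPM per kilobase, the mice of 6 months lay at 1.52 to 2.02 for Olfr316 and at 1.58 to 1.93 for Olfr287, so the ranges of these neighbours overlapped. The ranges also overlapped between Olfr78 (0.759 to 1.08) and Olfr464 (0.587 to 1.04), and both were below the first pair in every mouse. Olfr558 followed at 0.203 to 0.271, below the lowest mouse of Olfr464, and from there down the ranges of neighbours in the order overlapped. Among the 20 Olfr genes highest per length, 13 were members at 6 months and 11 at 24 months. The highest non-member, Olfr543, held rank 8 at 6 months and rank 6 at 24 months. It had 26 counts at 6 months over 1456 exonic bases.

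**Figure D1:**
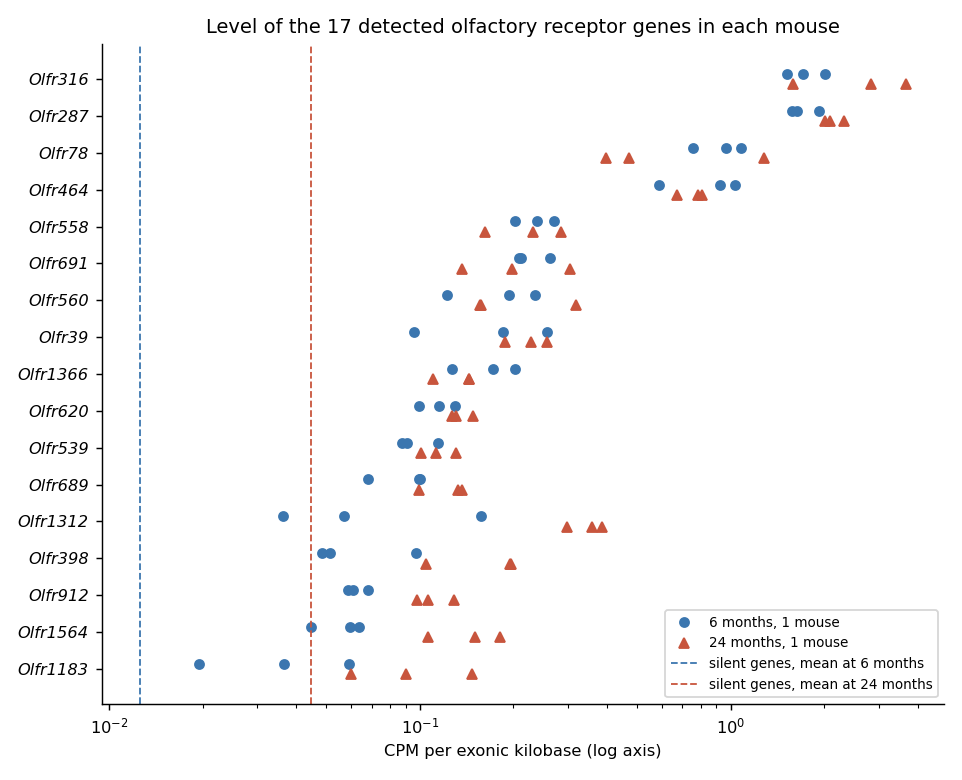
Level of each member in each mouse as CPM per exonic kilobase on a log axis, circles for 6 months and triangles for 24 months, with dashed lines at the mean level of genes silent at 6 months. Olfr316, Olfr287, Olfr78 and Olfr464 stand apart at the top, and the triangles of Olfr1312 lie to the right of all its circles.

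As a floor for these levels, protein-coding genes outside the sensory receptor families with at most 2 counts in a pair of the 6-month libraries were read in the third 6-month library and in all of the 24-month libraries (2151 to 2278 genes, called silent genes here). Their level was 0.0126 ± 0.00087 CPM per kilobase at 6 months and 0.0445 ± 0.016 at 24 months, 3.54 times as high. The other Olfr genes as a whole were at 0.0191 ± 0.0014 and 0.0679 ± 0.018, 3.55 times as high. The members were at 0.290 ± 0.022 and 0.363 ± 0.021, 1.25 times as high. At 6 months the single members stood at 3.05 (Olfr1183) to 139 (Olfr316) times the level of the silent genes, and at 24 months at 2.23 to 60.7 times. The 24-month libraries differed among themselves in the silent level, at 0.0599 in mouse 2, 0.0454 in mouse 4 and 0.0281 in mouse 5.

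The share of all Olfr counts held by the members was 29.9%, 24.6% and 25.1% in mice 10, 11 and 17 and 9.53%, 10.4% and 15.2% in mice 2, 4 and 5. Every mouse of 24 months was below every mouse of 6 months. The summed level of the members was 24.0 ± 1.8 CPM at 6 months and 30.02 ± 1.7 CPM at 24 months, while that of the other Olfr genes was 66.7 ± 5.0 and 237 ± 63. The number of Olfr genes with at least 1 count was 781, 873 and 860 at 6 months and 1097, 1094 and 1066 at 24 months. Over the whole table it rose as well, from 33974, 35651 and 35172 genes to 43561, 42717 and 40208. In the 24-month libraries 275 Olfr genes reached the limit of 30 counts, the 17 members and 258 others. The members held a smaller share at 24 months. Their own summed level, with nothing taken off, was higher in every mouse of 24 months than in any mouse of 6 months. Per kilobase, mouse 10 was the highest of 6 months at 0.314, beside a silent level of 0.0117. Mouse 4 was the lowest of 24 months at 0.339, beside a silent level of 0.0454. With the silent level taken off, mouse 4 would lie below mouse 10.

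**Figure D2:**
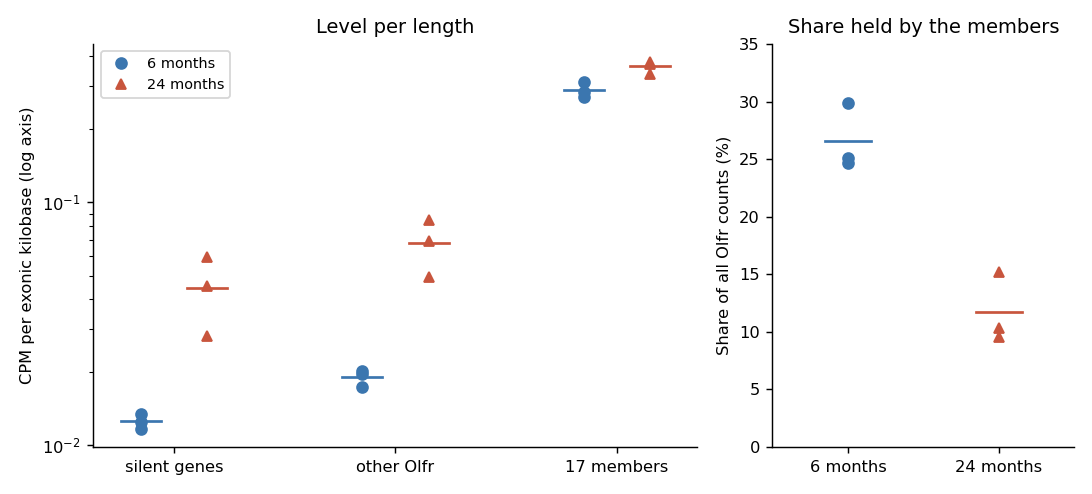
Left, CPM per exonic kilobase (log axis) of the silent genes, the other Olfr genes and the members, 1 symbol per mouse and a line at the mean of each age. Right, the share of all Olfr counts that fell on the members, where the 3 mice of 24 months lie at 9.53% to 15.2% and those of 6 months at 24.6% to 29.9%.

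In the comparison of 24 with 6 months, fitted with edgeR over the 32905 genes with at least 10 counts, all 17 members passed that filter, which they could not miss given how they were chosen. The false discovery rate (FDR) was adjusted over all genes tested. At 10% FDR, 4 members were higher and 0 lower, where 10.0% of all genes tested were called higher and 8.33% lower (3299 and 2742 genes, or 4113 and 323 when scaled by library totals). The rule used the 6-month counts of this contrast, so nothing is read from these shares. Of the 17, 12 had a higher fitted value, beside 58.4% of all genes. In 6 members all 3 mice of 24 months were above all 3 of 6 months, and in 0 members all were below, where 20.0% and 16.2% of all genes were so. The fitted log2 changes had a median of 0.31 over the members, 0.15 over all genes tested and 1.83 over the 971 other Olfr genes tested, of which 455 were called higher and 0 lower. The rule left the other Olfr genes with fewer than 30 counts at 6 months (median 5 over all 1102). Many of them thus reached 10 counts only through the 24-month libraries, which favours a higher value. Nothing is read from the gap between them and the members. At the 1% FDR that the study used, 0 members and 0 genes of the whole table passed in the quasi-likelihood test, and 10096 genes, 6 members among them, had an unadjusted p under 0.05. At that FDR the likelihood ratio test of edgeR called 1703 genes, Olfr1312 (adjusted p = 0.00024) and Olfr1564 (adjusted p = 0.0054) among them, and DESeq2 called 227, with Olfr1312 (adjusted p = 0.0013). At 10% FDR the former called 5 members higher and 0 lower (16.1% and 6.67% of all genes), and DESeq2 called 4 higher and 0 lower with its Wald test (4.93% and 6.29%). With mouse 10, 11, 2 or 4 left out, 0 members were called higher, without mouse 17 there was 1, and without mouse 5 there were 6. The calls of the whole table moved with these, from 0 higher genes without mouse 10 or mouse 4 to 4364 without mouse 5.

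**Figure D3:**
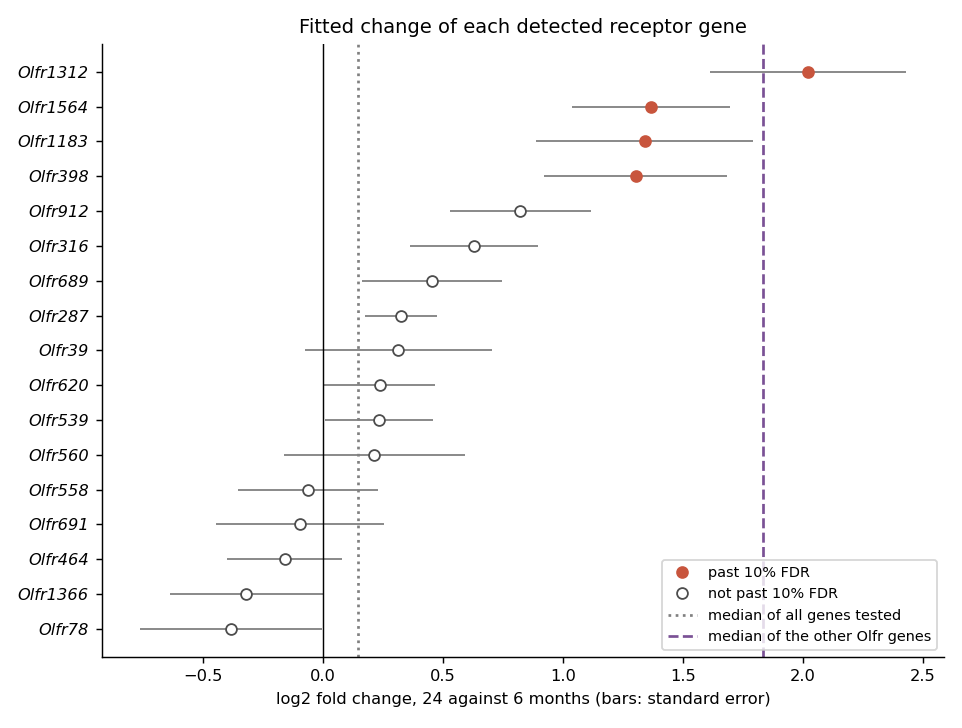
Fitted log2 fold change of each member, 24 against 6 months, with its standard error. The 4 filled symbols passed 10% FDR, and the dotted line marks the median of all genes tested (0.15). All members but Olfr1312 lie left of the dashed line at the median of the other Olfr genes (1.83). The rule and the filter on counts favour high changes in those genes.

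Olfr1312, Olfr1564, Olfr1183 and Olfr398 were the members called higher. All are among the 6 members with the fewest 6-month counts. Olfr1312 (chromosome 2, 112038068 to 112050238, GRCm38) had 6, 29 and 10 counts in mice 10, 11 and 17 and 67, 66 and 54 in mice 2, 4 and 5. Every mouse of 24 months had at least 54 counts and no mouse of 6 months more than 29. The log2 fold change was 2.02 ± 0.41 (SE, adjusted p = 0.0518). It moved from rank 19 to rank 5 per length among the Olfr genes, and its level was 0.0835 and then 0.347 CPM per kilobase.

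Olfr1564 (chromosome 17, 33211206 to 33221690) went from 10, 12 and 8 counts to 32, 20 and 28, with a fitted change of 1.37 ± 0.33 on the log2 scale (adjusted p = 0.0553). Olfr398 (chromosome 11, 73979967 to 73990407) had 8, 18 and 9 counts and then 34, 36 and 19, with 1.30 ± 0.38 (adjusted p = 0.0687). The groups of both did not overlap, though for Olfr398 the lowest mouse of 24 months was 1 count above the highest of 6 months. Olfr1183 (chromosome 2, 88454867 to 88469199) had 5, 17 and 10 counts and then 40, 26 and 17, with 1.34 ± 0.45 (adjusted p = 0.0898). Its highest mouse of 6 months and its lowest of 24 months both had 17 counts, and they were told apart by the scaling alone. Olfr912 had 12, 12 and 11 counts and then 24, 21 and 19. Its groups did not overlap, and at 0.82 ± 0.30 it missed the 10% FDR (adjusted p = 0.103). It passed with library totals (adjusted p = 0.0822), without mouse 5 (adjusted p = 0.0888) and in the likelihood ratio test (adjusted p = 0.0686). With DESeq2 it did not pass (adjusted p = 0.256). With the filterByExpr filter of edgeR, Olfr912 missed (adjusted p = 0.1005) and Olfr1183 lost its call (adjusted p = 0.130).

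In each of the 4 called genes, mouse 11 was the highest of the 6-month mice: it held 29 of the 45 counts of Olfr1312, 18 of the 35 of Olfr398, 17 of the 32 of Olfr1183 and 12 of the 30 of Olfr1564. The 6 olfactory bulb markers (Cdhr1, Tbx21, Doc2g, Eomes, Th and Shisa3) were each highest in mouse 11 of all 6 mice and summed to 22.8 CPM there, against 5.86 to 7.97 CPM in the other 5 mice. The 9 markers of olfactory sensory neurons summed to 27.6, 32.5 and 21.6 CPM at 6 months and 31.9, 25.9 and 27.3 CPM at 24 months, and Gng13 made up most of it. Omp, which marks mature sensory neurons, had 4, 13 and 11 counts and then 18, 9 and 5. The part of bulb tissue in the counts of mouse 11 was not tested. Without mouse 11 the log2 fold change of Olfr1312 was 2.90 (adjusted p = 0.102), where only 1 gene of the whole table was called.

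**Figure D4:**
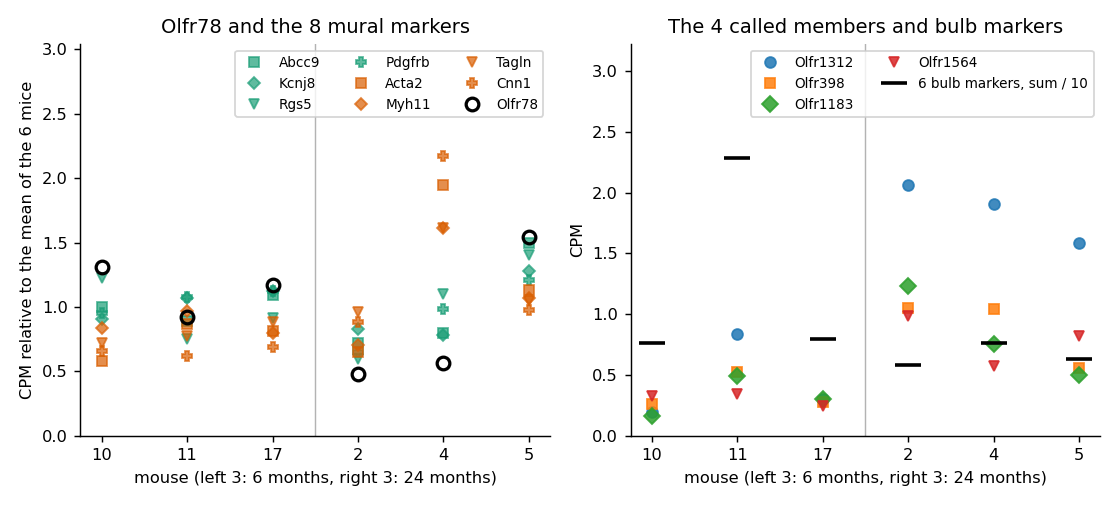
Values in each mouse, the 3 of 6 months on the left of each panel and the 3 of 24 months on the right. Left, CPM of Olfr78 (open circles) and the 8 mural cell markers, each relative to its mean over the 6 mice, with the 4 markers highest in mouse 5 in green and the 4 highest in mouse 4 in orange; right, CPM of the 4 called members with the sum of the 6 bulb markers divided by 10, which is highest in mouse 11.

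Olfr316, Olfr287 and Olfr464, which with Olfr78 were the highest per length, were not called. Olfr316 (chromosome 11, 58752734 to 58759671) went from 169, 160 and 135 counts to 324, 267 and 147. Mice 2 and 4 were above all mice of 6 months, and mouse 5 lay within their range. The log2 fold change was 0.63 ± 0.27 (adjusted p = 0.147), and without mouse 5 it was 0.90 (adjusted p = 0.0335). The order of mice 2, 4 and 5 was also that of the silent genes, whose part in the values of Olfr316 was not tested. With the silent level of the same mouse taken off, Olfr316 was at 1.733 ± 0.253 and then 2.655 ± 1.033 CPM per kilobase. Its TPM went from 6.14 ± 0.86 to 10.3 ± 4.0.

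Olfr287 (chromosome 15, 98206971 to 98221056) had 161, 153 and 140 counts and then 177, 196 and 214. Every mouse of 24 months was above every mouse of 6 months. The log2 fold change was 0.32 ± 0.15 (adjusted p = 0.175), and scaled by library totals alone it was 0.51 and called (adjusted p = 0.0737). Olfr464 (chromosome 11, 87913268 to 87920967) had 74, 47 and 70 counts and then 61, 54 and 62. Its groups overlapped fully, and the change was -0.16 ± 0.24 (adjusted p = 0.672).

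Olfr78 (chromosome 7, 102738511 to 102759471) had the most 6-month counts of any member and the lowest fitted change. In the younger mice it had 201, 158 and 191 counts, in the older ones 78, 98 and 262. Mice 2 and 4 were below all mice of 6 months and mouse 5 was above all of them. On the log2 scale the change was -0.39 ± 0.38 (adjusted p = 0.511), and it was -1.10 without mouse 5 (adjusted p = 0.0323), while with any other mouse left out it was -0.47 to -0.09 and not called. In CPM, Olfr78 was at 6.52, 4.58 and 5.83 and then 2.40, 2.83 and 7.70. The 8 mural cell markers (pericytes and vascular smooth muscle) summed to 265, 181 and 214 CPM and then 141, 259 and 315, and 0 of the 8 were called by the quasi-likelihood test or DESeq2, with 1 called by the likelihood ratio test and 1 at an unadjusted p under 0.05. The sum was mostly Rgs5, a pericyte gene. For Olfr78 and the sum, mouse 2 was the lowest and mouse 5 the highest of all mice, but the other 7 markers summed to 34.3, 39.6 and 40.3 CPM and then 28.2, 51.5 and 49.3, with mouse 4 the highest. Of the 8 single markers, 4 were highest in mouse 5 (Abcc9, Kcnj8, Rgs5 and Pdgfrb) and 4 in mouse 4 (the smooth muscle genes Acta2, Myh11, Tagln and Cnn1). The summed markers of endothelial cells (57.4 and 97.3 CPM in mice 2 and 5), microglia (271.9 and 307.9) and oligodendrocytes (1051 and 3540) were also lowest in mouse 2 and highest in mouse 5. The part of mural cell content in the values of Olfr78 was not tested.

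Olfr558 (chromosome 7, 102702215 to 102712064), the other member known in vascular smooth muscle, had 19, 25 and 27 counts and then 16, 30 and 24. Its groups overlapped and the change was -0.07 ± 0.29 (adjusted p = 0.898). Olfr560 (chromosome 7, 102751818 to 102759366) had 24, 14 and 21 counts and then 17, 18 and 36, with 0.21 ± 0.38 (adjusted p = 0.726). Mouse 5 was the highest for Olfr560 as for Olfr78, and without it the fitted change of Olfr560 was -0.21. In GENCODE vM21 the exons of Olfr560 share 926 bases with those of Olfr78 on the same strand. This is 42.7% of its 2168 exonic bases there and 15.3% of those of Olfr78. The deposited values of Olfr560 rest on another version of the gene with 3323 exonic bases, whose overlap was not examined. The values of Olfr560 are thus uncertain.

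The further class I members were 3 genes with 51 to 85 counts at 6 months. Olfr620 had 23, 30 and 32 counts and then 31, 34 and 38, a change of 0.23 ± 0.23 (adjusted p = 0.514). Olfr689 had 18, 20 and 13 counts and then 25, 20 and 27, with 0.45 ± 0.29 (adjusted p = 0.312). Olfr691 had 15, 17 and 20 counts and then 15, 11 and 24, with -0.10 ± 0.35 (adjusted p = 0.871). The groups of all 3 overlapped, and none passed the test. Across the class I members the fitted changes ran from -0.39 to 0.45.

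Olfr539, Olfr39 and Olfr1366 are class II members whose groups overlapped as well. Olfr539, the member with the longest exons (11486 bases), had 31, 36 and 43 counts and then 42, 40 and 51, with 0.23 ± 0.22 (adjusted p = 0.505). Olfr39 had 6, 13 and 17 counts and then 15, 18 and 13, with 0.31 ± 0.39 (adjusted p = 0.607). Olfr1366 had 20, 14 and 18 counts and then 15, 16 and 12, with -0.32 ± 0.32 (adjusted p = 0.516). It ranked 10 per length at 6 months and 28 at 24 months. With the level of the silent genes of the same mouse taken off, an alternative added after the data were seen, Olfr1366 was the 1 member with all 24-month mice below all 6-month mice (0.154 ± 0.039 against 0.0884 ± 0.0092 CPM per kilobase). The share of all genes on that scale was not computed.

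With that level taken off, 9 of 17 members had a higher mean at 24 months, against 12 with a higher fitted value, and 4 had every mouse of 24 months above every mouse of 6 months, against 6. These 4 were Olfr287, Olfr1312, Olfr1564 and Olfr912. Olfr1312 went from 0.0710 ± 0.064 to 0.302 ± 0.030 CPM per kilobase. Olfr398 and Olfr1183 had overlapping groups on this scale. The subtraction was made for the members alone, so no share of all genes can be set beside these counts. Nothing is read from them. Without subtraction, the difference between the ages was above that of the silent genes in 9 members and above the median of the other Olfr genes (0.0478 CPM per kilobase) in 7.

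Members of higher and of lower level overlapped in their changes, and the difference between them was not tested. Split by the mean level per length over all 6 libraries, which hold the counts of the rule and of the change, the upper 8 members had a median change of 0.12 on the log2 scale, a range of -0.39 to 2.02 and 4 of 8 fitted higher, and the lower 9 a median of 0.45, a range of -0.32 to 1.37 and 8 of 9 fitted higher. The difference in level was 0.0171 CPM per kilobase at the median of the upper 8 and 0.0333 at that of the lower 9. Near the limit of the rule the counts were few. Just inside were Olfr1564 with 30 counts over the 6-month mice, Olfr1183 with 32, and Olfr398 and Olfr912 with 35 each. Just outside were Olfr1535 with 28 (6, 16 and 6, then 12, 20 and 16 at 24 months), Olfr943 with 28 (8, 11 and 9, then 30, 23 and 35) and Olfr878 with 27 (9, 4 and 14, then 7, 19 and 12).

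A gene chosen for high 6-month counts had those counts set against the 24-month ones, so the choice was also made on a pair of the 6-month mice, with at least 20 counts, and the remaining mouse was read. The median log2 ratio of the 24-month mean to that mouse was 0.69 over 23 genes with mouse 10 held out, 0.33 over 15 genes with mouse 11 held out, and 0.64 over 18 genes with mouse 17 held out. The ratio was above 0 in 19, 13 and 13 of them. The 3 values lie above the 0.31 of the members, but they are CPM ratios over other sets of genes, not fitted changes. They also lie below the 1.83 of the other Olfr genes. Those genes were set apart by fewer than 30 counts at 6 months. Choosing on a pair of mice does not free that comparison of the rule, and nothing is read from it.

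Where the counts come from within the genome bears on 4 more members. The protocol was not stated to keep the strand, so reads of genes that overlap on opposite strands cannot be told apart. The exons of Olfr287 share 290 bases with Gm44579 on the same strand, those of Olfr539 share 612 bases with the pseudogene Olfr540-ps1 on the opposite strand, and those of Olfr558 share 101 bases with the pseudogene Gm45688 on the opposite strand. All 3 partners are listed at 0 counts in every mouse. Stretches of 69 bases were compared between the GENCODE vM21 transcripts, which hold another version of Olfr560 than the one counted. Stretches that also occur in transcripts of another gene made up 39.8% of those of Olfr560 and 31.0% of those of Olfr287. They made up 13.4% for Olfr78, 10.8% for Olfr316 and 0 to 9.64% for the other 13 members. For Olfr1312, Olfr691 and Olfr1366 none was shared. Genes named Olfr were left out of the search for expressed neighbours, so the overlap of Olfr560 with Olfr78 does not enter it. The nearest other gene with a mean TPM of at least 1 was Zkscan8 for Olfr1366, 4.0 kb downstream on the same strand. For the other members such a gene was at least 14.9 kb away.

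RefSeq gives a window of 250 bases before to 50 after the gene start for 14 members (GRCm38.p6), and for the others none was used. In 8 of the 14 the start is the start codon itself, as in 72.6% of the 944 Olfr windows, so that the window is not a mapped promoter. The member windows held 0 to 3 CG pairs, beside a median of 7 over all 32851 windows and of 1 over the Olfr windows. The letters TATAAA, on either strand, occurred in 3 of the 14, in 13.6% of all windows and in 41.2% of the Olfr windows. The windows of Olfr287, whose start is the same in both annotations, and of Olfr558 are shown as the starts, outside the coding sequence, of an abundant member and of a vascular one. Capitals mark the first 10 bases from the start.
Olfr287, chr15:98221007-98221306, minus strand: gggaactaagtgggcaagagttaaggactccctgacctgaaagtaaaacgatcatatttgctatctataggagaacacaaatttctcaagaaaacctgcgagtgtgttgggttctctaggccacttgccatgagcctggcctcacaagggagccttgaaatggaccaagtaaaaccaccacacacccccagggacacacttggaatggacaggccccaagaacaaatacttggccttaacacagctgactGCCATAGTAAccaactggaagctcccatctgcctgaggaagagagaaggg
Olfr558, chr7:102702073-102702372, plus strand: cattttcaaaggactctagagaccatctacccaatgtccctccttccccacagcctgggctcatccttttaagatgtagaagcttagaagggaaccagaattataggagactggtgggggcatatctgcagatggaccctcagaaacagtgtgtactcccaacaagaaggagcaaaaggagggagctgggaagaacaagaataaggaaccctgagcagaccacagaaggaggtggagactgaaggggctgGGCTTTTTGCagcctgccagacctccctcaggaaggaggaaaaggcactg

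The other genes of the pathway were measured in the same fit. Of 15 genes of olfactory transduction, 1 was called higher and 5 lower at 10% FDR, beside 10.0% and 8.33% of all genes tested, and the median of their fitted changes was -0.15. The channel subunit Cngb1 was the higher one, with 5, 5 and 11 counts and then 27, 22 and 14 (1.53 ± 0.43, adjusted p = 0.0654). The lower ones were Gnal (-0.38 ± 0.10, adjusted p = 0.0616), Adcy3 (-0.40 ± 0.10, adjusted p = 0.0559), the G protein exchange factor Ric8b (-0.32), the sodium/calcium exchanger Slc24a4 (-0.49) and the phosphodiesterase Pde4a (-0.35). These 5 genes stood at 22.3 to 244 CPM over all mice, far above the receptors. Of 15 genes of receptor choice and trafficking, 1 was called higher (Ldb1, 0.31) and 1 lower (Reep1, -0.46). When scaled by library totals, Cngb1 (1.72) and Ldb1 (0.51) kept their calls and none of the 6 lower genes was called, at -0.13 (Ric8b) to -0.30 (Slc24a4). Ldb1 was not called by the likelihood ratio test (adjusted p = 0.141) or DESeq2 (adjusted p = 0.125), nor without the filter on counts (adjusted p = 0.123). Without mouse 10, 11, 2 or 4 none of these 8 genes was called. Rtp2, which carries receptors to the cell surface, was at 0 counts in mouse 17 and at 3 to 9 counts in the other mice, and Stoml3 of the sensory neuron list was at 0 in mice 10 and 11 and at 2 to 5 counts in the others. None of the 9 sensory neuron markers was called with all 6 mice by the quasi-likelihood test or DESeq2. The likelihood ratio test called 1, and 1 had an unadjusted p under 0.05. Without mouse 17 the quasi-likelihood test called 1 of the 9 higher. Of the other marker lists, 2 of 7 cortical excitatory neuron genes were called lower, 1 of 6 microglia genes higher and 1 lower, 1 of 5 red blood cell genes lower and 1 of 5 astrocyte genes higher. With library totals none of these lists kept a lower call, and 1 excitatory neuron gene was called higher. Without mouse 10, 11, 2 or 4 no gene of these lists was called. With all 6 mice, no endothelial (4), border macrophage (4), oligodendrocyte (4) or choroid plexus (5) gene was called by edgeR or DESeq2, and 0 of them had an unadjusted p under 0.05. Without mouse 5, 1 endothelial gene was called lower. The 6 bulb genes, each highest in mouse 11, all fitted lower at 24 months. Their sum was 22.8 CPM in mouse 11, 7.62 in mouse 10 and 7.97 in mouse 17, against 5.86 to 7.63 CPM at 24 months. Of the 6, 0 were called by the quasi-likelihood test or DESeq2, 1 by the likelihood ratio test, and 2 had an unadjusted p under 0.05.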

How the data were processed

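The authors trimmed the reads (Trim Galore 0.6.4), mapped them to GRCm38 with STAR 2.7.3a and counted them on exons with featureCounts of Subread 2.0.0, keeping reads with a mapping quality of at least 15, which in STAR output leaves those mapped to 1 place. Clipping left at most 69 bases of a read. Tool versions are from the submitters' processing notes. The deposited files give each of 55421 genes a whole-number count per mouse, and a TPM that the authors derived from count and exonic length.

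The members and the gene lists were chosen with earlier results of these data known. Members were selected by a limit of 30 counts over the 6-month libraries. The ages were compared with edgeR 4.0.16 (R 4.3.3): TMM scaling, at least 10 counts over the 6 libraries, the quasi-likelihood test on all genes without covariates, and Benjamini-Hochberg adjustment over all genes tested. A standard error is the size of the log2 fold change divided by the square root of its F statistic. The 3 mice of an age are separate animals, as labelled. CPM was computed with TMM factors, and CPM per kilobase with the exonic length behind the TPM values. The factors were 0.921 to 0.946 at 6 months and 1.037 to 1.10 at 24 months, so the scaling itself differed between the ages. Such low counts carry a wide counting error, and no fold is given against a group at 0. Held-out ratios used a pseudocount of 0.01 CPM. The members to be named were the 12 highest by TPM at 6 months, the 5 largest and 5 smallest fitted changes, those called lower, those with exons shared with another gene, those at the limit, and those known outside the nose, which comes to all 17. Pathway genes were named when called or at 0 in a library. 1 marker gene is not reported here. Sequences were read from GENCODE vM21 transcripts and RefSeq windows (Python 3.11.15, biopython 1.88). Alternatives were size factors of DESeq2 1.42.0 and its Wald test (5745 adjusted p-values not given, left out), library totals, other filters, the likelihood ratio test, other limits, and each mouse left out. The fits and the level of silent genes were tested on simulated data. Of the gene identifiers, 181 are not in GENCODE vM21. Olfr560 has another version there (2168 exonic bases against 3323 behind its TPM).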

Additional observations from a re-analysis of the deposited data

How the results depend on the processing

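The members called higher (4) were 0 to 6 with 1 mouse left out, those called lower 0 to 1 (Olfr78, without mouse 5), those fitted higher 11 to 14, the median log2 fold change 0.27 to 0.41 and the pathway genes called (8) 0 to 9. The median was 0.50 with library totals only and 0.43 with the filterByExpr filter, under each of which 2 pathway genes were called, and 0.54 without the members that share exonic bases. It was 0.69 and 0.64 with the 6-month level read in mouse 10 or mouse 17 alone. With a limit of 20 counts there were 45 members, 10 called higher, 38 fitted higher and a median of 0.79. With a limit of 60 counts there were 7 members, 0 called higher (edgeR) and 4 fitted higher. The cause of these moves was not tested. With library totals, Olfr558 changed sign to 0.122, Olfr691 to 0.0878 and Olfr464 to 0.0324, and with filterByExpr Olfr558 to 0.0458 and Olfr691 to 0.0131. With 1 mouse left out in turn, Olfr558 ranged from -0.22 to 0.13, Olfr691 from -0.44 to 0.19 and Olfr464 from -0.33 to 0.0079, and Olfr560 was at -0.21 without mouse 5. Over single members and alternatives, a call was lost in 20 cases and gained in 6. Library totals moved the median of all genes from 0.15 to 0.33. Over all genes, 3299 were called higher and 2742 lower, against 4113 and 323 with library totals, 1108 and 430 with filterByExpr, 2637 and 1377 without the filter, 5302 and 2196 in the likelihood ratio test and 1340 and 1708 in DESeq2. No paired analysis was possible because the ages share no mouse number. At 30 to 550 counts per member over the 6-month mice, counting error limits what changes could be seen.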
